A study of Mus musculus with 5 samples.

Results

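The core pluripotency factors and their regulators were followed in mouse embryonic stem (ES) cells in which the chromatin protein SATB1 was induced. The group holds 10 genes, Nanog, Pou5f1, Sox2, Tbx3, Tfcp2l1, Prdm14, Zfp42, Utf1, Zfp281 and Lin28a, of 19938 genes measured under a single gene symbol. They were chosen by name, and each was measured by 1 probe set of the array. All 10 genes were found, and no filter on low values was applied.

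RNA was hybridised to 5 arrays. The induced group had 3 arrays of cells titled tetO-Satb1 and given doxycycline (DOX) for 24 h, labelled as overexpressing Satb1. The uninduced group had 2 arrays of tetO-Satb1 cells without DOX, labelled as control. Both groups were grown with LIF and 15% serum, and RNA was taken 48 h after passaging. A settling time of 10 min is given for every array. The tetO promoter, which DOX switches on, is shared by all arrays. No array had cells treated with DOX but lacking the transgene, so effects of DOX and of Satb1 cannot be told apart. The labels do not say whether arrays came from separate cultures or clones, so p-values measure only how much these arrays vary, and that variation may be technical. With 5 arrays, their number limits the precision.

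Pluripotency, the ability to form all tissues of the body, is held in ES cells by a network of transcription factors. OCT4 (the product of Pou5f1), SOX2 and NANOG bind many of the same regulatory sites, including those of their own genes. Around them stand factors such as TBX3 and TFCP2L1 that pass on the LIF signal, PRDM14, which holds back differentiation signals and DNA methylation, and LIN28A, which keeps let-7 microRNAs from maturing. SATB1 binds AT-rich DNA and recruits chromatin regulators. It was proposed to repress Nanog and Tbx3 in ES cells, and the comparison of induced with uninduced cells asks whether their transcripts are lower when SATB1 is raised.

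The sequence before the Nanog start is shown because it holds the element through which OCT4 and SOX2 are known to act on this gene. RefSeq windows of 250 bases before a gene start (GRCm38.p6) were at hand for 8 of the 10 genes, and Tbx3 and Prdm14 were not among them. Nanog has 2 overlapping windows for its 2 starts, and the first, chr6:122707239-122707488 on the plus strand, is printed. Capitals mark the composite searched for, an octamer core (TTTGCAT) followed after 1 free base of any kind by a SOX core (ACAATG).
Nanog: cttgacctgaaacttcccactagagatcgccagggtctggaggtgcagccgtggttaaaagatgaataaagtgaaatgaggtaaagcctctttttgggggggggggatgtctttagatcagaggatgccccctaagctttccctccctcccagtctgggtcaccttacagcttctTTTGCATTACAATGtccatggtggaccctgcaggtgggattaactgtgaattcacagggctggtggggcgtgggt

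The match begins 75 bases before the first Nanog start and 151 bases before the second. Both strands were searched for this composite in 32851 windows of 250 bases, and 2 windows held it, which is 0.00609% of them. Both were the Nanog windows, which overlap and hold the same site. Apart from the free base only this exact spelling was searched, and the element was already known at Nanog. The match there was therefore given in advance, and the share does not cover other spellings of such elements. The shorter cores are common, and each composite holds 1 of each. The octamer core was in 4.12% of all windows and the SOX core in 10.7%. Among the other 7 genes, the octamer core was found before Sox2 (chr3:34649888-34649910, plus strand) and Zfp42 (chr8:43307180-43307202, minus strand), and the SOX core before Lin28a (chr4:134018899-134018920, minus strand) and before the second Pou5f1 start (chr17:35508641-35508662, plus strand). These 4 matches are printed with 8 bases on each side, in the direction of the gene, with the core in capitals.
Sox2: cccctttcATGCAAAaccctctg
Zfp42: aagaggcaTTTGCATaactgagc
Lin28a: ggttgggtCATTGTcttttaga
Pou5f1: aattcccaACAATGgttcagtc

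The Sox2 and Lin28a matches lie on the opposite strand, so that the core reads there as its reverse complement. Because SATB1 binds AT-rich DNA, base composition was also taken. The first Nanog window was 52.0% G and C, with 48.4% of all windows lower, and its longest run of A and T was 6 bases, against a median of 7 over all windows. The windows of Sox2, at 72.0%, and of Zfp281, at 69.6%, were richer in G and C than 93.1% and 90.2% of windows. The lowest among these 8 genes was the second Pou5f1 window, at 45.6%, with a run of 8 bases of A and T. A match or a composition describes these letters only.

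Levels are RMA values on the log2 scale, in which a difference of 1 is a doubling. Satb1 checks the labels. It stood at 8.61, 8.79 and 8.68 on the induced arrays, against 4.95 and 5.34 on the uninduced arrays, 11.7-fold higher (log2 change 3.55 with a 95% interval of 3.23 to 3.86, limma adjusted p = 0.0038). The ES cell identity was checked with 10 markers, 4 of them among the genes of interest here. Their mean was 8.69, 8.70 and 8.66 on the induced arrays, against 8.68 and 8.73 on the uninduced arrays, and the dimmest of them, Tcl1, lay between 4.88 and 5.06. Feeder cells are named in the treatment protocol, and the mean of 27 fibroblast genes was 5.32, 5.32 and 5.34 on the induced arrays, against 5.31 and 5.32 on the uninduced arrays, where single genes ran between 2.29 and 8.50 over all arrays. In bulk RNA, fewer cells of a type and less RNA per cell cannot be told apart.

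None of the 10 pluripotency genes passed the test between induced and uninduced cells, in either direction (limma over all 19938 genes, adjusted p = 1 for each). At an unadjusted p under 0.05 the count was 0 as well, the smallest being the 0.333 of Prdm14, and 0 members passed with limma's default prior. Over all genes 1 gene, Satb1, was higher and 0 were lower, which is 0.00502% and 0% called, and 60 and 154 genes (0.301% and 0.772%) had an unadjusted p under 0.05. In no member did the induced arrays all lie below the uninduced ones, as in 3.08% of all genes, or all above them, as in 1.65%. With counts of 10 genes, 0 is near these backgrounds.

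**Figure D1:**
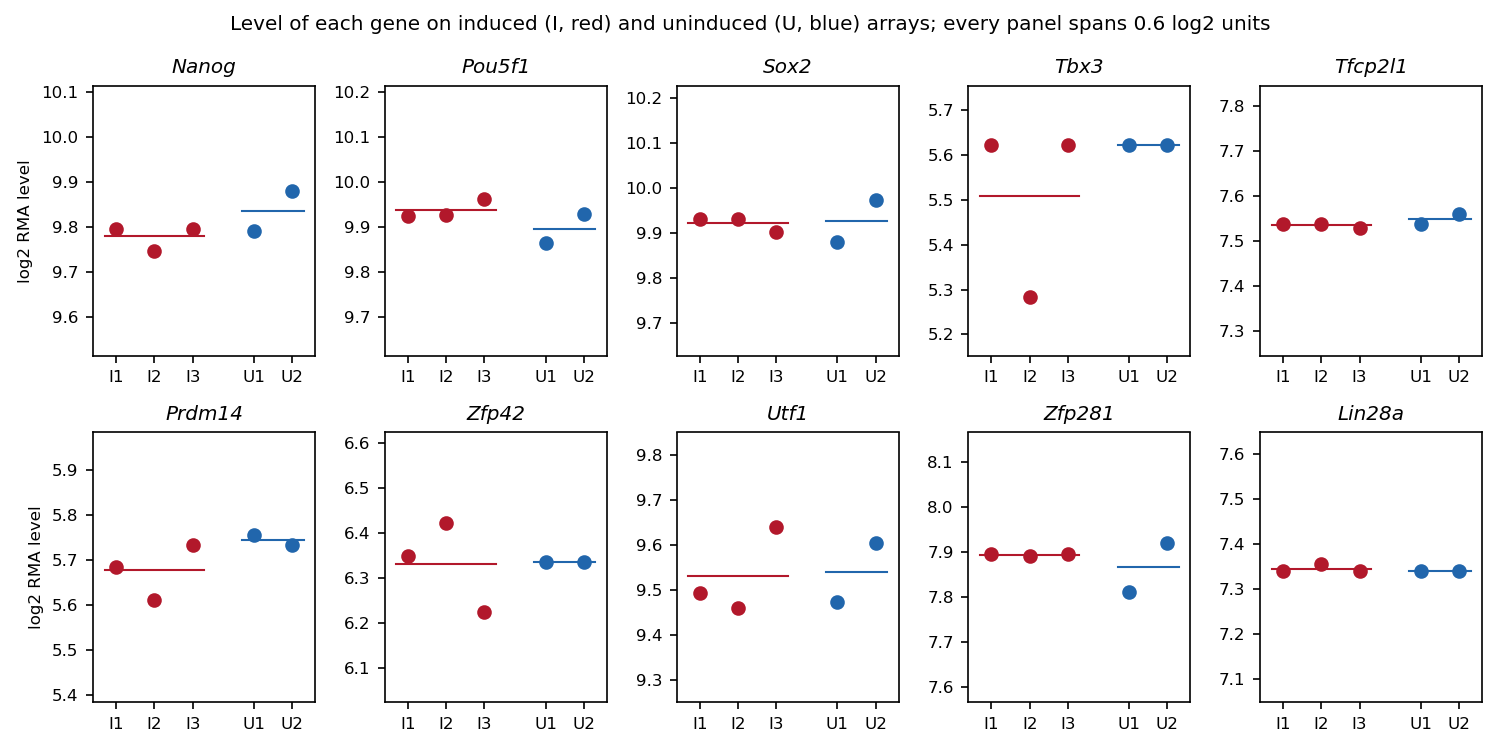
Log2 RMA level of each of the 10 genes (vertical axis, each panel spanning 0.6 log2 units) on the 3 induced arrays (I1 to I3, red points) and the 2 uninduced arrays (U1 and U2, blue points), with group means as lines. Induced and uninduced points overlap or tie in every panel, and the lowest Tbx3 point, 5.28, belongs to induced array 2 alone.

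Nanog, the homeodomain factor that stabilises self-renewal, read 9.80, 9.75 and 9.80 on induced arrays 1 to 3, against 9.79 and 9.88 on the uninduced arrays. Induced arrays 1 and 3 carried exactly the same value and lay between the 2 uninduced arrays, and induced array 2 lay below both. The mean was 9.78 ± 0.03 in induced (SD, n = 3) and 9.84 ± 0.06 in uninduced cells (SD, n = 2). The log2 change was -0.056 ± 0.061 (standard error), smaller than the gap of 0.087 between the 2 uninduced arrays. Its 95% interval of -0.21 to 0.095 leaves room for a level up to 13.4% lower or 6.83% higher in induced cells. Without uninduced array 1 or 2 the change was -0.10 or -0.012, so 1 uninduced array sets most of its size. Nanog also has pseudogenes, and none of them was measured by name.

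Pou5f1 encodes OCT4, the POU factor without which the pluripotent state is lost. It read 9.92, 9.93 and 9.96 on the induced arrays, against 9.86 and 9.93 on the uninduced arrays. The higher uninduced array lay among the induced ones, and the other lay below them all. The log2 change of 0.042 ± 0.059 (standard error) had a 95% interval of -0.10 to 0.19. Pou5f1 has pseudogenes of near-identical sequence, and a transcript of theirs that reached its probes would be counted with it. The 1 such copy measured by name, Pou5f1-rs4, had 3.27, 2.98 and 3.49 on the induced arrays, against 3.27 on both uninduced arrays (log2 change -0.024 ± 0.15, standard error).

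Sox2, the HMG-box partner of OCT4, read 9.93, 9.93 and 9.90 on the induced arrays, against 9.88 and 9.97 on the uninduced arrays. All 3 induced values lay between the 2 uninduced ones. The log2 change was -0.0047 ± 0.061 (standard error), with a 95% interval of -0.15 to 0.15, which as a level is between 10.2% lower and 10.6% higher. Its sign turned, at 0.0024, with quantile normalization applied again.

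Tbx3, a T-box factor that supports the naive state downstream of LIF, had exactly the same value, 5.62, on induced arrays 1 and 3 and on both uninduced arrays. Induced array 2 stood apart at 5.28. The log2 change was -0.11 ± 0.12 (standard error), the largest among the 10 genes, and 11.5% of all genes had a larger change in either direction. All of it came from induced array 2, without which the change was 0. The 95% interval of -0.40 to 0.18 is the widest of the 10 and leaves room for a level up to 24.3% lower in induced cells. Across all genes, 640 (3.21%) shared the form of its pattern, with induced array 2 lower and the other 4 arrays exactly equal, and 11 of these, Tbx3 included, had a step at least as large, 0.34 below the others.

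The other LIF-linked factor, Tfcp2l1, read 7.54, 7.54 and 7.53 on the induced arrays, against 7.54 and 7.56 on the uninduced arrays. Exact ties joined induced arrays 1 and 2 with uninduced array 1. The log2 change was -0.013 ± 0.055 (standard error), and its interval of -0.15 to 0.12 leaves room for a level up to 9.81% lower.

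Prdm14, whose product recruits repressive chromatin complexes to genes of FGF signalling and DNA methylation, read 5.68, 5.61 and 5.73 on the induced arrays, against 5.76 and 5.73 on the uninduced arrays. Induced array 3 had exactly the value of uninduced array 2, and the other 2 induced arrays lay below both uninduced ones. The log2 change of -0.068 ± 0.064 (standard error) had an interval of -0.23 to 0.090. It was at -0.035 without induced array 2 and at -0.096 without induced array 3. With arrays centred on their medians, which breaks ties, Prdm14 was the 1 member whose induced values all lay below the uninduced ones. In that setting 10.5% of all genes did the same.

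Zfp42 encodes REX1, a zinc finger protein used widely as a marker of naive ES cells. It read 6.35, 6.42 and 6.23 on the induced arrays, against 6.34 on both uninduced arrays. The induced arrays spanned 0.20, with the uninduced value inside that span, and the log2 change was -0.0025 ± 0.076 (standard error). Utf1, a chromatin-bound protein whose gene is a target of OCT4 and SOX2, read 9.49, 9.46 and 9.64 on the induced arrays, against 9.47 and 9.60 on the uninduced arrays. Its groups overlapped fully, with both the highest and the lowest value on induced arrays, and its log2 change was -0.0080 ± 0.083 (standard error).

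Zfp281, a zinc finger protein known in mouse ES cells to bring the NuRD repressor complex to Nanog, read 7.90, 7.89 and 7.90 on the induced arrays, against 7.81 and 7.92 on the uninduced arrays. The 3 induced values spanned 0.0051 and lay inside the gap of 0.11 between the uninduced ones. Its log2 change was 0.028 ± 0.062 (standard error), with an interval of -0.13 to 0.18. Lin28a, the RNA-binding protein that blocks let-7 maturation, had 7.34 on 4 arrays and 7.36 on induced array 2. Its log2 change of 0.0058 ± 0.055 (standard error) had an interval of -0.13 to 0.14.

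**Figure D2:**
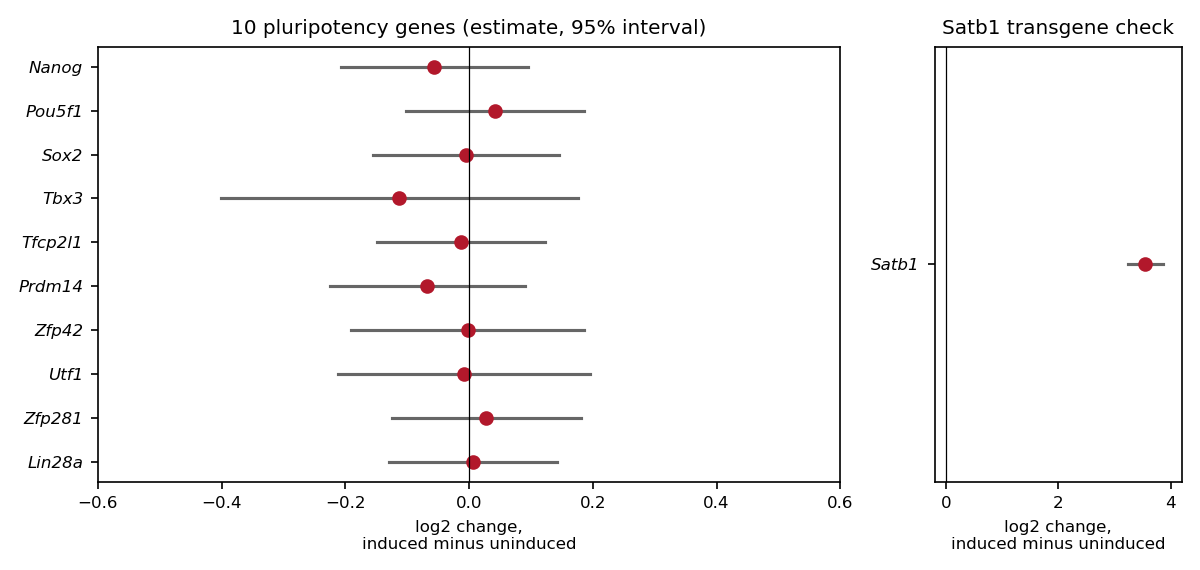
Log2 change, induced minus uninduced, of the 10 genes (left, axis from -0.6 to 0.6) and of Satb1 (right, axis to 4.2), with 95% intervals from limma as lines. Every interval of the 10 genes crosses 0 and none reaches below the -0.40 of Tbx3, whereas the interval of Satb1 starts at 3.23.

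The 10 genes did not share a direction. The mean was lower in induced cells for 7 and higher for 3, against 45.3% lower, 39.6% higher and the rest equal among all genes. Their changes ran from -0.11 in Tbx3 to 0.042 in Pou5f1, with a median of -0.0063, against 0 over all genes. The median size of change, sign aside, was 0.021 for the 10 and 0.031 over all genes. No member reached a change of 1.5-fold, which 7 of all genes (0.0351%) did. After Tbx3, the changes of Prdm14 and Nanog were the next in size, with 25.7% and 31.6% of all genes changing more.

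**Figure D3:**
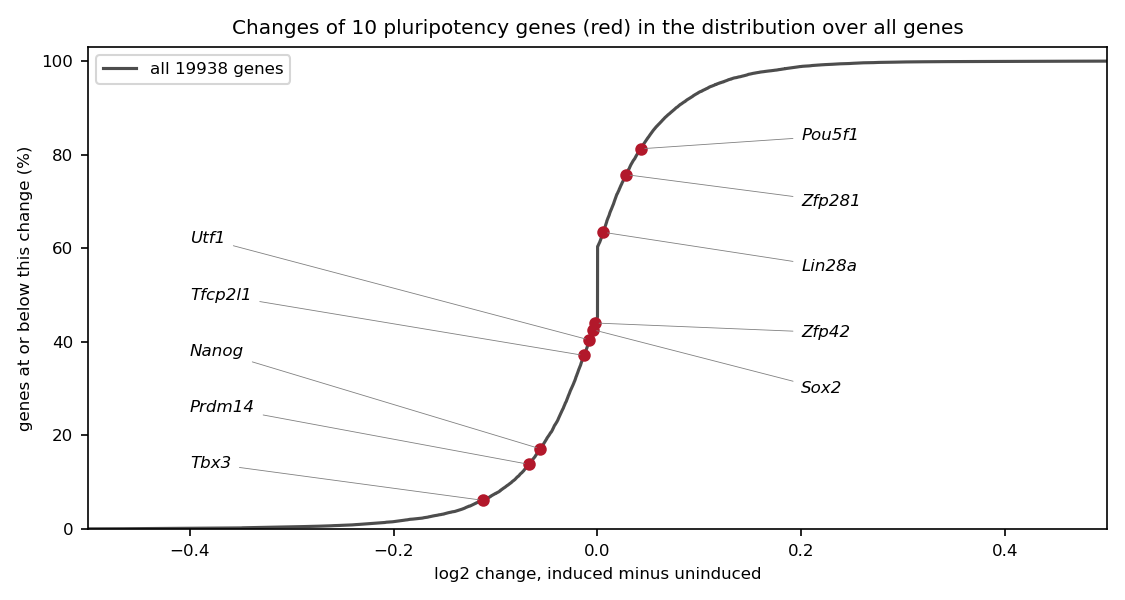
Share of all 19938 genes (vertical axis, %) with a log2 change, induced minus uninduced, at or below the value on the horizontal axis, with the 10 genes as red points. The vertical step at 0 is made by genes with the same value on all arrays, and the 10 genes lie between -0.11 and 0.042.

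The change in these genes was set beside the spread within each group. It was smaller than the gap between the 2 uninduced arrays in 6 of the 10, against 40.8% of all genes, and smaller than the range of the 3 induced arrays in 6 of the 10, against 57.3% of all genes. Uninduced array 2 was above uninduced array 1 in 6 of the 10, namely Nanog, Pou5f1, Sox2, Tfcp2l1, Utf1 and Zfp281, below it in Prdm14 and equal in 3. Over all genes these shares were 30.6%, 26.4% and 43.0%. Uninduced array 2 alone was highest in 4 of the 10 genes and induced array 2 alone was lowest in 4, where 16.8% and 15.2% of all genes did the same. The mean level of the 10 was 7.96, 7.92 and 7.96 on the induced arrays, against 7.94 and 7.99 on the uninduced arrays, so the groups overlapped in the mean too.

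With 1 uninduced array left, the order of the groups in these genes turned on which array it was. Without uninduced array 1, Nanog, Sox2, Tfcp2l1 and Zfp281 were lower on every induced array, as were 18.2% of all genes, and 0 were higher, as 12.8% of all genes were. Without uninduced array 2, Pou5f1, Sox2 and Zfp281 were higher on every induced array and Prdm14 was lower, where 14.5% of all genes were higher and 14.9% lower. The change of Sox2 was -0.052 and 0.043 in these fits, and that of Zfp281 was -0.027 and 0.083, with no call in either (limma adjusted p = 1 for each).

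Profiles like those of Nanog and Tbx3 across the 5 arrays were also found in other genes. Likeness was the root mean square distance between log2 profiles, each centred on its own mean. The nearest to Nanog were Gm7168, Zdbf2 and Wsb1, at 0.0017, 0.0020 and 0.0029, and 285 genes lay within 0.02 of it. The nearest to Tbx3 were Nr4a3, 5730596B20Rik and Dixdc1, at 0.0031, 0.0032 and 0.0045, and 26 genes lay within 0.02. In level, Gm7168 lay between 3.36 and 3.49 and the 3 genes nearest to Tbx3 between 2.58 and 4.15. These are below the median gene level of 5.06, while Zdbf2 and Wsb1 lay between 8.85 and 9.02. With 5 arrays and many ties, such likeness is a description of these arrays.

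The factors known to repress Nanog, with the subunits of the NuRD complex that ZFP281 recruits, were read beside it. None of the 16 measured genes was called. The mean was lower in 9 and higher in 7, and the median change was -0.0017. Tcf7l1, the WNT pathway repressor of Nanog, read 6.70, 6.76 and 6.78 on the induced arrays, against 6.63 and 6.87 on the uninduced arrays, which enclosed them. Hdac2, a histone deacetylase of NuRD, had a log2 change of -0.12 ± 0.062 (standard error), not past the test. It was the 1 gene of this list with all induced values below the uninduced ones, while Chd3 was the 1 above them. Over all genes these shares were 3.08% and 1.65%, and 1 of 16 is near them. The NuRD subunit Mta1 had 0.16 ± 0.099, Cdk2ap1 had -0.13 ± 0.084 and the methyl-CpG binding protein gene Mbd2 had -0.13 ± 0.11 (standard errors). For Mta1, Cdk2ap1 and Mbd2 the change was smaller than the gap between the uninduced arrays, 0.30, 0.24 and 0.36.

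In the LIN28 and let-7 pathway, none of 15 measured genes was called, where 0.00502% of all genes were. None separated the groups, where 3.08% of all genes lay below and 1.65% above, so a count of 0 is near these shares. The mean was lower in 10 and higher in 4, and the median change was -0.012. Lin28b, the paralog of Lin28a, had a log2 change of -0.064 ± 0.073 (standard error). Myc, a known let-7 target, had -0.12 ± 0.092, Tut4, which tails let-7 precursors, had -0.054 ± 0.065, and Dis3l2, which degrades them, had 0.056 ± 0.078 (standard errors).

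Of 12 partners and repressed targets of PRDM14, none was called. The mean was lower in 8 and higher in 3, and the median change was -0.017. Dnmt3l, a cofactor of DNA methylation, read 9.15, 9.18 and 9.02 on the induced arrays, against 9.29 and 9.41 on the uninduced arrays. Every induced value lay below both uninduced ones, and its change of -0.23 ± 0.078 (standard error) did not pass over all genes (limma adjusted p = 1). The de novo methyltransferase gene Dnmt3a had 0.098 ± 0.070, the PRDM14 partner gene Cbfa2t2 had -0.078 ± 0.066 and Uhrf1, which guides maintenance methylation, had -0.061 ± 0.055 (standard errors). In this list 3 genes lay below and 1 above without overlap. These are 25.0% and 8.33% of the list, against 3.08% and 1.65% of all genes. All 5 values were distinct in 33.3% of the list, against 9.03% of all genes. The difference from all genes was not tested.

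Paralogs of the 10 genes gave no call either. Among 13 measured, the mean was lower in 8 and higher in 4, and the median change was -0.0081. None separated the groups, which is near the 3.08% below and 1.65% above among all genes, where 0.00502% were called. Sox21 had a log2 change of -0.099 ± 0.068, Zfp148 of -0.083 ± 0.065, Sox1 of 0.11 ± 0.089 and Tbx4 of -0.071 ± 0.068 (standard errors).

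The wider naive network around these factors had no called gene. Among 22 measured genes the mean was lower in 19 and higher in 2, Esrrb did not vary between arrays, and the median change was -0.044. The induced values all lay below the uninduced ones in 6 of the 22, against 0 of the 10 and 3.08% of all genes. The difference between the 2 lists was not tested. All 5 values were distinct in 31.8% of this list and in 9.03% of all genes. A tie between an induced and an uninduced array can keep groups from separating, while a tie within a group does not. Whether ties account for the larger share was not tested. The share below was 4.98% among genes above the median level and 9.26% among genes untied within both groups. The smallest p-values were those of Tet2, Nr5a2, Nr0b1 and Klf4, with log2 changes of -0.37 ± 0.087, -0.27 ± 0.066, -0.25 ± 0.082 and -0.35 ± 0.16 (standard errors), none past the test over all genes (limma adjusted p = 1). Klf4, the Krüppel-like factor of the LIF pathway, read 6.73, 6.27 and 6.74 on the induced arrays, against 6.95 and 6.91 on the uninduced arrays. Its lowest array was induced array 2, as in Tbx3, Nanog, Prdm14 and Utf1 and in 15.2% of all genes. The same array alone was highest in Zfp42 and Lin28a.

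Markers of the states that ES cells enter when pluripotency is lost were not called in any list. The primed epiblast list had a median change of 0 over 11 genes, primitive endoderm had 0.0018 over 12 and trophectoderm had 0 over 12. Otx2, a factor of the primed epiblast, read 5.80, 5.76 and 5.76 on the induced arrays, against 5.73 and 5.55 on the uninduced arrays. Gata6, which drives primitive endoderm, read 4.88, 4.89 and 4.99 on the induced arrays, against 4.85 and 4.82 on the uninduced arrays. In both, the induced values all lay above the uninduced ones, with changes of 0.13 ± 0.075 and 0.084 ± 0.063 (standard errors) that did not pass. Lef1 and Lama1 of the same lists lay below the uninduced arrays throughout, so that each list had 1 gene above and 1 below. Tfap2c of trophectoderm and Lox of the fibroblasts also lay below, the 1 such gene of each list, with 0 above. Over all genes 3.08% lay below and 1.65% above, and 1 gene in lists this short is near these shares. Among the lower means, Zic2 had -0.33 ± 0.15, Sfrp2 had -0.13 ± 0.083, the WNT factor gene Lef1 had -0.13 ± 0.055 and the laminin gene Lama1 had -0.083 ± 0.060 (standard errors). The changes of Zic2 and Sfrp2 were smaller than the gaps between their uninduced arrays, 0.50 and 0.22. Zic2 had exactly the same value, 5.47, on induced array 1 and uninduced array 1. Foxa2 and Pdgfra of primitive endoderm had -0.096 and 0.059. Of the trophectoderm genes Ascl2, Eomes, Tfap2c and Krt8 had -0.16, 0.10, -0.072 and 0.12, and of the fibroblast genes Lox, Tagln, Acta2 and Mmp2 had -0.20, 0.19, 0.18 and 0.11 on the log2 scale.

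**Figure D4:**
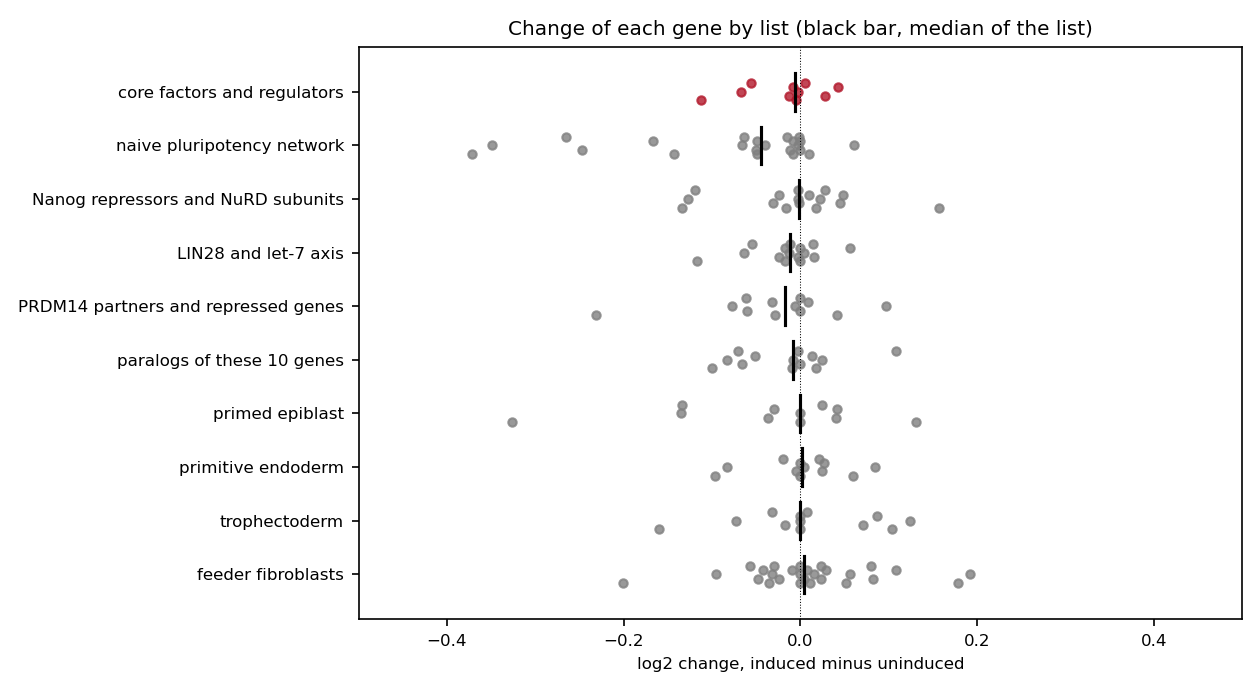
Log2 change, induced minus uninduced (horizontal axis), of every measured gene of the 10 core factors and regulators (red) and of the other lists (grey), 1 row per list, with the list's median as a black bar. The 10 genes have a median of -0.0063 and a narrower range than the naive network, whose median is -0.044.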

How the data were processed

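The authors deposited log2 values for 35557 probe sets, made with RMA, which corrects background, normalizes between arrays and summarises probe sets, per the submitters' processing notes. No version or genome build is named in the sources used here. The log2 scale was read from the values (0.789 to 13.1). Normalization between arrays hides a shift common to all transcripts. The array's annotation gave 1 symbol to 21789 probe sets, several to 1621 and none to 12147. The probe set with the highest mean stood for a gene.

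Only 9.03% of genes had 5 distinct values, and exact ties make the spread too small. Groups were compared with limma 3.58.1 (R 4.3.3) on all 5 arrays, with the variance prior taken from the 1800 genes with 5 distinct values (prior SD 0.086, 2.87 degrees of freedom) and applied to every gene, Benjamini-Hochberg adjustment and a threshold of 0.05. These genes may be noisier than tied ones. The test was tested on simulated data. An exact permutation test of 3 against 2 arrays cannot go under 0.1 and was not used.

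Alternatives were limma's default prior and its trend and robust form, genes untied within both groups, the mean of all probe sets, only genes above the median level, quantile normalization applied again, arrays centred on their medians, the title number as a block, the fibroblast mean as a covariate, each array left out and a threshold of 0.01. Members and lists were chosen with earlier results of these data known. Named were all 10 genes, Satb1, the 4 genes with the smallest p of each list and the 3 nearest profiles to Nanog and Tbx3. Other genes (Tcf7l1, Chd3, Esrrb, Tcl1, Pou5f1-rs4) were named after their values were seen. The marker list of ES cells added Tdgf1 (log2 change -0.21 ± 0.061, standard error) and Dppa5a (0.060 ± 0.065), neither past the test. Tdgf1 read 11.07, 11.09 and 11.01 on the induced arrays, against 11.23 and 11.29 on the uninduced arrays. It was the 1 of these 10 markers with all induced values below, as in 3.08% of all genes, and 0 lay above.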

Additional observations from a re-analysis of the deposited data

How the results depend on the processing

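None of the 10 genes passed in any of the 15 alternatives in which it was tested (smallest limma adjusted p 0.762, smallest unadjusted p 0.191), and no change was larger than 0.17. Not every alternative was free to add a call, as a threshold of 0.01 is stricter than 0.05. The mean of all probe sets left the values of these genes unchanged, because each has 1 probe set. Against 1 higher and 0 lower genes over all, limma's default prior and its trend and robust form each gave 2 higher and 1 lower. Genes above the median level gave 1 lower. The replicate block and the fibroblast covariate gave 0 higher, where Satb1 missed the threshold (limma adjusted p = 0.0823 and 0.0918). Leaving out single arrays gave 1 higher and 0 lower each time. Satb1 missed the threshold with the default prior and with its trend and robust form too (adjusted p = 0.229 and 0.283), so the genes counted there are others. The 10 genes had 1 below (Prdm14) with centred arrays and 1 above (Pou5f1) with quantile normalization, where centring and normalizing break ties. Of all genes, 10.5% lay below with centred arrays and 14.4% above with quantile normalization, so 1 of 10 is near these shares. With single arrays left out, 0 to 4 of the 10 were below and 0 to 3 above. The shares of all genes there ran from 4.73% to 18.2% below and from 2.82% to 14.5% above. The median change of the 10 ran from -0.040 to 0.0017. Signs turned within the spread for Sox2 (0.0024 with quantile normalization, 0.0048 with the replicate block), Tfcp2l1 (0.0049, quantile), Zfp42 (0.0078 quantile, 0.051 block, 0.059 covariate) and Zfp281 (-0.00028, covariate). With single arrays left out, Sox2 ran from -0.052 to 0.043, Utf1 from -0.073 to 0.058, Zfp281 from -0.027 to 0.083 and Zfp42 from -0.047 to 0.051. The cause of these turns was not tested.

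Arrays that share a title number were not shown to be paired (correlations of their deviations across genes -0.0063 and 0.0063). The replicate block gave no call among the 10 genes and a median of -0.0028, and it takes its estimate from the 2 pairs, because induced array 3 has no partner.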
